A study of Mus musculus with 40 samples.

Results

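The fragments with the strongest reporter activity in an enhancer screen were compared across 5 stages of hematopoietic specification. They come from the 10 libraries whose titles name the High gate, 2 replicates of each stage, out of 40 libraries in all. The stages, in order of differentiation, were ES (embryonic stem cells), HB (hemangioblasts), a first and then a second hemogenic endothelium (HE1, HE2), and blood progenitors (HP), and values by stage are given in this order. These 10 libraries hold 114897 of the 458486 deposited fragments, and overlapping High fragments merged into 34795 regions. All samples derive from HM-1 ES cells of the 129/ola strain, an established mouse line whose Hprt gene does not function and is repaired when the reporter construct integrates there. Open-chromatin fragments cut out of the 5 stages by the Tn5 transposase were placed in front of the HSP68 minimal promoter and Venus-YFP, integrated one per cell with CRISPR assistance under HAT selection, and the cells were differentiated in serum and sorted by stage and then by YFP into Negative, Low, Medium and High gates. ES cells were undifferentiated. HB were sorted as FLK1+ cells of embryoid bodies, HE1 as KIT+ TIE2+ CD41-, HE2 as KIT+ TIE2+ CD41+ and HP as KIT+ TIE2- CD41+ cells of blast culture. A deposited list gives each different fragment once, as coordinates, with no read count, and the methods of the study describe keeping fragments within an open-chromatin peak of the same stage. The lists hold DNA fragments of a reporter and no expression values, so the stage labels could not be checked against marker genes here. What separates the 2 replicates beyond their number is not given in the labels. The p-values below measure the spread between these samples, which may be technical. Those for adjacent stages instead come from reordering the 5 stages over the same overlaps, and measure no spread between replicates.

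Enhancers are stretches of DNA, often far from a gene, that transcription factors bind to raise the activity of a promoter. During blood formation, mesodermal cells first become endothelium with blood-forming potential, in which RUNX1 then turns on the blood program and the endothelial program is shut down. Pluripotent cells use OCT and SOX factors, while GATA, ETS, RUNX and PU.1 factors act in the endothelial and blood stages, and AP-1 and TEAD factors respond to signals from outside the cell.

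The sequences below were chosen because the description of the strongest loci turns on these regions. Each is a window of 200 bp around the base that most High fragments of the region cover, on the plus strand of GRCm38 (mm10), from RefSeq. Gadd45g (chr13:51853349-51853548) led ES, 3930402G23Rik (chr8:10946110-10946309) was among the leading regions of HE1, Clec11a (chr7:44305015-44305214) held most fragments in HP of replicate 1, and Ints3 (chr3:90446428-90446627) held most in HE2 of replicate 1. Tamm41 (chr6:115066071-115066270) was the region found in most High libraries, and Pik3ca (chr3:32396826-32397025) lay next to a start site and was found in 8 of them. Far2 (chr6:148003897-148004096) and 4930533K18Rik (chr10:71005890-71006089) held most fragments in HE1 and HP of replicate 2. Each name is that of the nearest transcription start site, which need not be the target of the fragment. Capitals mark matches to the 12 motifs searched, given with their letters below. Windows that overlap an annotated exon are named without their sequence.
Gadd45g window: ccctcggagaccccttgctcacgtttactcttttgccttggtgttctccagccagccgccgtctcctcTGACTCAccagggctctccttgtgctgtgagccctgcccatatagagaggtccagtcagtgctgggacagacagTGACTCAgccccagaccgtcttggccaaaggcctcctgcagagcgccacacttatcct
3930402G23Rik window: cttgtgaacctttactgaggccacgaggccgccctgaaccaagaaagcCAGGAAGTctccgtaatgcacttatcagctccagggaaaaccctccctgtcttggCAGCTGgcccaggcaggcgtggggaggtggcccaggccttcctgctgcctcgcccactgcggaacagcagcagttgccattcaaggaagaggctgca
Clec11a window: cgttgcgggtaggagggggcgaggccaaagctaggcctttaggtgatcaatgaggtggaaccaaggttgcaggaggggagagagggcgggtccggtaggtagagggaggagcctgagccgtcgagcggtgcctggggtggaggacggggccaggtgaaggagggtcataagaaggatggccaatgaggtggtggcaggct
Ints3 window: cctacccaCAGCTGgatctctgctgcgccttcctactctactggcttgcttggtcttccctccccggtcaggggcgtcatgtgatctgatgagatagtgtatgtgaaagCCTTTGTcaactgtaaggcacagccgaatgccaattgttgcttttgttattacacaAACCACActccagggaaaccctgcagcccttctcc
Tamm41 window: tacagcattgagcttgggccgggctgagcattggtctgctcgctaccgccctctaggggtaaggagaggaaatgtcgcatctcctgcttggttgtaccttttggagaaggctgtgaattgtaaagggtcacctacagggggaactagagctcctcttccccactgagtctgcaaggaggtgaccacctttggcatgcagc
Pik3ca window: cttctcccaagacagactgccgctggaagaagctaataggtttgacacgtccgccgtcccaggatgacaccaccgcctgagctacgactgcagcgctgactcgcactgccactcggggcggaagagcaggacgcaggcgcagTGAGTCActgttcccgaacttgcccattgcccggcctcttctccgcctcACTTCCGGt
Far2 window: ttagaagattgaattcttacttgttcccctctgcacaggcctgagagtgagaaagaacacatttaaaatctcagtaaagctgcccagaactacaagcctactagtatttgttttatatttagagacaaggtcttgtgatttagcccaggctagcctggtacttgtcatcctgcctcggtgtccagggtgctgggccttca
4930533K18Rik window: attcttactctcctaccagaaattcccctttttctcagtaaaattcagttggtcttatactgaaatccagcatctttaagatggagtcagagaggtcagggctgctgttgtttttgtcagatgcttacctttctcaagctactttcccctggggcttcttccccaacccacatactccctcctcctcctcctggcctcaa

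The motifs were searched on both strands as TGACTCA for AP-1, TGTGGTT as well as TGTGGTC for RUNX, GAGGAAGT for PU.1, CCGGAAGT as well as CAGGAAGT for ETS, AGATAAG for GATA factors and GGAATGT as well as GGAATGC for TEAD, ACAATGG as well as ACAAAGG for SOX, ATGCAAAT for OCT, CAGCTG for EBOX, TTGCGCAA for CEBP, TGGGAA for RBPJ and the CTCF consensus by name. An RBPJ match can overlap a TEAD match. The Gadd45g window holds 2 AP-1 matches, the Pik3ca window an AP-1 and an ETS match, the 3930402G23Rik window an ETS and an EBOX match, and the Ints3 window a RUNX, a SOX and an EBOX match. No motif searched was found in the Clec11a, Tamm41, Far2 and 4930533K18Rik windows. Over the 34791 windows of 200 bp centred on High regions, 9.39% held an AP-1 match, 9.49% RUNX, 9.06% SOX, 15.8% EBOX, 5.01% ETS, 4.71% GATA, 3.03% PU.1 and 7.37% TEAD. OCT was found in 0.997% of these windows, CTCF in 3.71%, CEBP in 0.0402% and RBPJ in 20.3%. A match is a description of the letters and not of binding.

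The 2 replicates stood far apart before any stage was compared. In replicate 1 the High libraries of the 5 stages held 10437, 16343, 39123, 18205 and 16508 fragments, and in replicate 2 they held 4487, 5931, 1413, 654 and 1796. Every stage was thus deeper in replicate 1, with a mean of 20123 ± 11021 against 2856 ± 2246 fragments (SD, n = 5 stages each). High fragments made up 27.0, 33.8, 26.6, 23.1 and 34.3% of the 4 gates in replicate 1. In replicate 2 they made up 33.5% in ES and in HB, but 3.64% in HE1, 9.58% in HE2 and 8.72% in HP. Mean GC content was 56.1 ± 0.740% in replicate 1 and 50.0 ± 0.606% in replicate 2 (SD, n = 5), and the ranges did not overlap. In replicate 2 between 82.5 and 95.4% of the High regions of a library rested on a single fragment, against 45.8 to 64.7% in replicate 1. The plot of library properties shows these gaps.

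**Figure D1:**
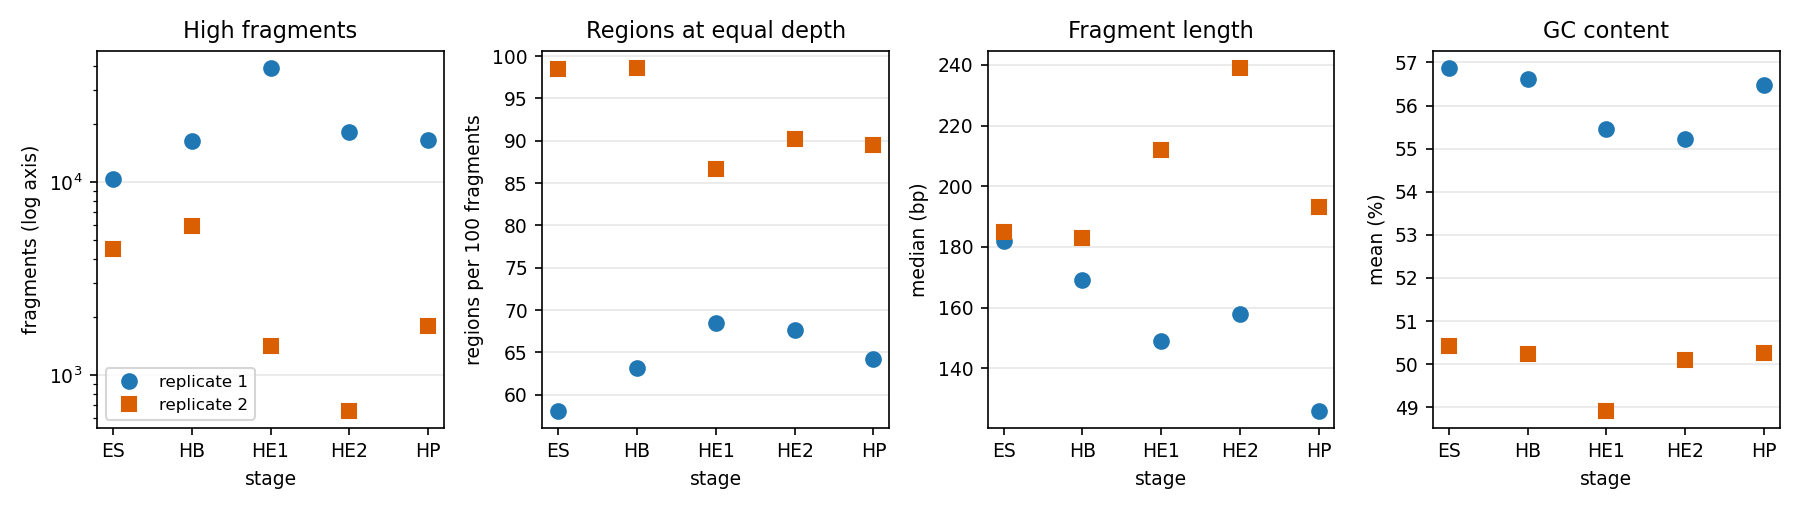
The 10 High libraries by stage, with replicate 1 as circles and replicate 2 as squares: unique fragments on a log axis, merged regions per 100 fragments after thinning to the smallest library of the replicate, median fragment length in bp and mean GC content in percent. Replicate 1 libraries hold 10437 to 39123 fragments and replicate 2 libraries 654 to 5931, and mean GC content is higher in replicate 1 at every stage. The axes of the last 3 panels do not start at 0.

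High libraries also shared fragments with identical ends. Between stages of replicate 1, 2.11 to 11.5% of the smaller library was found in the other (median 3.18%, 10 pairs), and between stages of replicate 2 it was 3.47 to 19.6% (median 7.80%). Between replicates the share was 0.278 to 2.18%. A High library also shared fragments with the other gates of its own sort, 0 to 5.90% in replicate 1 (median 2.92%, 15 pairs) and 4.36 to 33.6% in replicate 2 (median 18.8%). With the Negative library of the sort, HE2 High of replicate 2 had 220 fragments in common (33.6%), HB 511 (16.7%) and ES 431 (15.3%), so part of the High fragments of replicate 2 were also sorted as Negative. The pair of HE1 and HP in replicate 1 had most in common within that replicate, with 1894 identical fragments. HP of replicate 1 stood apart, since its 4 gates had 0 fragments in common while those of every other sort shared 1463 or more. Its High library shared 2456 fragments, 15.2% of the smaller list, with the Medium library of HB in replicate 1. Larger shares with other stages and gates were found in replicate 2. HE2 High there had 322 fragments (49.2%) in common with HB Negative and 257 (39.3%) with HE1 Low. HB High of replicate 2 had 1486 (25.1%) in common with HE1 Low. The stage comparisons below were also made without HP of replicate 1, which changed the call in the test per region alone.

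Regions of High fragments were more numerous where the library was deeper, with 6065, 8733, 15441, 10193 and 8927 from ES to HP in replicate 1 and 4173, 5467, 1105, 590 and 1423 in replicate 2. Libraries were therefore thinned to the smallest of their replicate, as the mean of 20 random draws. At equal depth, ES, HB, HE1, HE2 and HP of replicate 1 gave 58.1, 63.1, 68.4, 67.6 and 64.2 regions per 100 fragments, and those of replicate 2 gave 98.4, 98.6, 86.7, 90.2 and 89.5. ES was lowest in replicate 1 but next to highest in replicate 2. The stage means differed by at most 4.05 regions per 100 fragments (exact permutation test of the variance of stage means, p = 0.995, or 0.958 with the replicate as a block). Without the block this test pools replicates that stand apart, which left it little power to find a stage difference. With a library left out, which leaves 1 replicate for that stage, the largest difference of stage means was 9.73 to 26.3. The share of thinned regions that no other stage of the replicate held was 33.8, 31.9, 30.8, 32.1 and 27.6% in replicate 1 and 94.4, 93.5, 91.0, 87.7 and 93.0% in replicate 2. Stage means of this share differed by at most 4.18 percentage points (exact permutation p = 0.927, or 0.425 with the block). With a library left out they differed by 22.8 to 36.7 points, and the replicates did not overlap.

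Without thinning, 12717 of the 24862 High regions of replicate 1 (51.2%) were found at a single stage and 1564 (6.29%) at all 5. In replicate 2, 10719 of 11634 (92.1%) were found at a single stage and 3 at all 5. Over all 10 libraries, 21582 of the 34795 regions (62.0%) were held by 1 library, 13 by 8, 2 by 9 and 1 by 10.

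By the Jaccard index, overlap between High region sets followed the replicate. The Jaccard index, the regions shared by a pair of libraries over the regions of either, was 23.5 ± 2.38% between stages of replicate 1 (SD, 10 pairs) and 1.17 ± 0.591% between stages of replicate 2. Between replicates it was 0.669 ± 0.108% for the same stage (5 pairs) and 0.646 ± 0.0809% for different stages (20 pairs). The same stage in the other replicate was thus no closer than another stage beyond the spread, with a difference of 0.0223 percentage points (one-sided exact permutation test over 120 assignments, p = 0.125). At a common depth the gap between replicates was smaller, and its cause was not tested. With all 10 libraries thinned to 654 fragments the index was 3.29 ± 0.273% within replicate 1, 1.23 ± 0.580% within replicate 2, 0.531 ± 0.114% for the same stage and 0.516 ± 0.0768% for different stages across replicates. As a percent of the smaller set, thinned within replicate, overlap was 39.6% within replicate 1 and 2.38% within replicate 2. Across replicates it was 7.97% for the same stage and 7.75% for different stages, above replicate 2. Those pairs set 654 fragments against 10437.

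**Figure D2:**
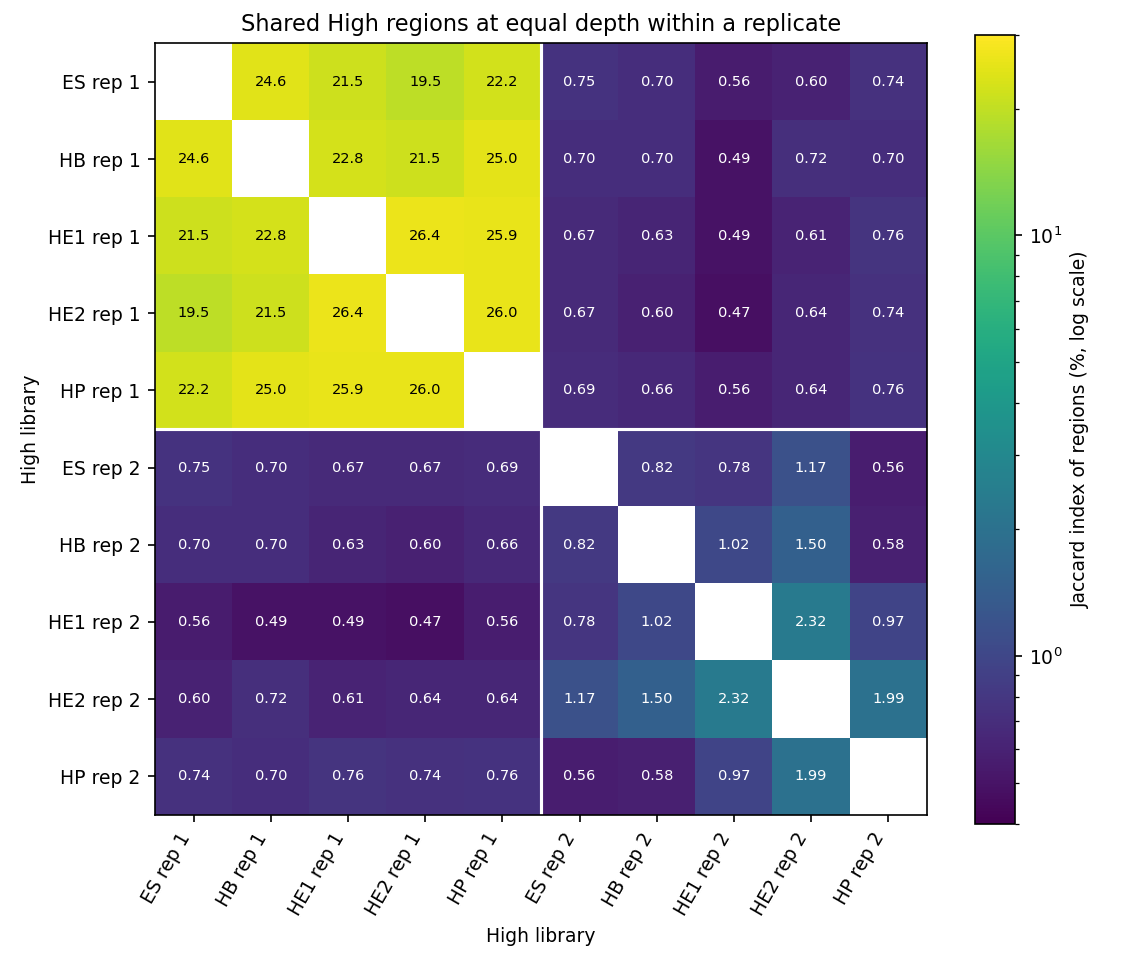
Jaccard index of High regions for each pair of the 10 libraries after thinning, in percent, with libraries ordered by replicate and stage. Pairs within replicate 1 lie between 19.5 and 26.4%, and pairs that join replicate 1 and replicate 2 average 0.669% for the same stage and 0.646% for different stages.

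Stages next to each other in differentiation (ES to HB, HB to HE1, HE1 to HE2, HE2 to HP) were compared with the other stage pairs. In replicate 1 the index was 25.0 ± 1.63% for the 4 adjacent and 22.6 ± 2.41% for the 6 other pairs, and in replicate 2 it was 1.54 ± 0.729% and 0.928 ± 0.363%. Averaged over the replicates, adjacent pairs were higher by 1.50 percentage points (one-sided exact permutation test over 60 orders of the stages, p = 0.05, which does not fall below the threshold of 0.05). Alone, replicate 1 gave 2.39 points (exact p = 0.05) and replicate 2 gave 0.611 points (exact p = 0.0167, the smallest that 60 orders allow). Leaving out single libraries moved it both ways, to 0.360 points without HE2 of replicate 1 (exact p = 0.283), 1.30 without ES of replicate 1 (exact p = 0.183), 2.32 without HB of replicate 1 (exact p = 0.0167) and 1.43 without HE1 of replicate 2 (exact p = 0.0333). Negative libraries measured in the same way gave 6.06 points (exact p = 0.0167), with 2.98 in replicate 1 (exact p = 0.05) and 9.15 in replicate 2 (exact p = 0.0333). The difference between the gates was not tested.

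A region High in both replicates of a stage was rare. There were 310 such regions in ES, 500 in HB, 121 in HE1, 62 in HE2 and 155 in HP, 1148 in all, or 0.608 to 5.73% of the regions of the replicate 1 library. With at least 2 fragments required in each replicate, 87 remained. Of the fragments of replicate 2, 7.11, 8.33, 9.34, 9.02 and 9.47% overlapped a High fragment of the same stage in replicate 1, and 15.8, 15.2, 13.0, 16.8 and 16.5% overlapped a High fragment of any stage there. Of the 100 regions with most High fragments in a replicate 1 library, 3.43 ± 1.18 overlapped a fragment of the thinned replicate 2 library of the same stage (5 pairs) and 3.52 ± 1.59 one of a different stage (20 pairs). That difference, -0.095 of 100 regions, was within the spread (one-sided exact permutation p = 0.483).

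The strongest loci were named by a rule on High fragments per 10000 of the library, which makes their own levels a description without a test. In ES the leading region lay 6771 bp downstream of Gadd45g, which encodes a stress-response protein that restrains cell growth, between genes at chr13:51853222-51853670. It held 10, 5, 9, 2 and 2 High fragments from ES to HP in replicate 1, and 7, 0, 0, 0 and 0 in replicate 2. ES was thus the only stage with fragments in both replicates there, with a mean of 12.6 ± 4.26 per 10000 (SD, n = 2). Over all gates, 31.5% of the fragments of this region were High. Its 2 AP-1 matches stand in the sequence above.

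A430078I02Rik was also among the leading regions of ES, in an exon (chr6:86471963-86472889), with 5, 12, 12, 6 and 6 fragments in replicate 1 and 5, 2, 0, 1 and 0 in replicate 2. Per 10000 fragments of replicate 1 it was highest in HB (7.34, against 4.79 in ES). In HB the leading regions lay 64630 bp downstream of the zinc finger gene Zfp958 (chr8:4677458-4678482) and 6054 bp upstream of Zmiz2, a transcriptional coactivator (chr11:6388668-6389475). Zfp958 held 11, 19, 19, 14 and 11 fragments in replicate 1 and 1, 3, 0, 0 and 0 in replicate 2. Zmiz2 held 15, 17, 25, 12 and 10 fragments and 0, 2, 0, 0 and 0. Both were High at all 5 stages of replicate 1 and were not specific to HB. Per 10000 fragments of replicate 1, Zmiz2 was higher in ES (14.4) than in HB (10.4), while Zfp958 was highest in HB (11.6, against 10.5 in ES). The Arhgap12 region, the third of HB, held 9, 16, 21, 7 and 8 fragments in replicate 1 and 2, 1, 0, 0 and 0 in replicate 2.

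In HE1 the region 17843 bp upstream of 3930402G23Rik (chr8:10945918-10946683) held 12, 9, 13, 3 and 1 fragments from ES to HP in replicate 1 and 0, 0, 2, 0 and 1 in replicate 2. Per 10000 fragments of replicate 1 it was highest in ES (11.5, against 3.32 in HE1). Its HE1 mean of 8.74 ± 7.66 per 10000 (SD, n = 2) thus rests on the 2 fragments of replicate 2. Mgat5b, an N-glycan branching enzyme, was also among the leading regions of HE1, and its intron held 1, 1, 4, 0 and 0 fragments and then 1, 0, 3, 0 and 0. The HE2 regions rest on a replicate 2 library of 654 fragments, where 2 fragments were enough to lead. They were an exon of B4galnt1, a ganglioside synthase (2, 2, 9, 6 and 3 fragments, then 0, 2, 1, 2 and 1), an intron of Slc34a1, a phosphate transporter (1, 4, 5, 2 and 1, then 0, 0, 0, 2 and 0), and an intron of Ank3, which encodes ankyrin-G (0, 0, 1, 1 and 0, then 1, 0, 0, 2 and 0). For Slc34a1 the HE2 mean was 15.8 ± 20.8 per 10000 (SD, n = 2), an error above the mean. Per 10000 fragments of replicate 1, B4galnt1 was highest in HE2 (3.30, against 2.30 in HE1), as was Ank3 on a single fragment (0.549), while Slc34a1 was highest in HB (2.45).

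In HP the leading regions were Gm9222, 31 bp upstream of its start site (chr12:17881523-17882162), 4631405J19Rik in an intron of Prdm11, and a region 23990 bp downstream of Armt1. Gm9222 held 2, 5, 5, 7 and 14 fragments from ES to HP in replicate 1 and 0, 1, 0, 0 and 3 in replicate 2, so HP was highest in both replicates. Its HP mean was 12.6 ± 5.81 per 10000 (SD, n = 2). With fragments that share an end counted once, as described below, its HP counts were 11 and 1, and HB of replicate 2 also had 1. 4631405J19Rik held 1, 1, 4, 0 and 2 fragments in replicate 1 and 0, 0, 1, 0 and 4 in replicate 2. Armt1 held 0, 1, 0, 1 and 2 fragments and then 0, 0, 0, 0 and 4. For these last regions most HP fragments came from replicate 2.

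Single libraries had other leaders. Clec11a, which encodes a secreted growth factor of bone and blood-forming cells, held 7, 19, 26, 15 and 27 fragments in an intron (chr7:44304632-44305455) in replicate 1, the most of HP and tied with Zfp958 in HB, and 0, 0, 0, 0 and 1 in replicate 2. The region 13030 bp upstream of Ints3, a subunit of the Integrator complex (chr3:90446315-90447017), held 3, 8, 14, 21 and 13 in replicate 1, the most of HE2, and 1, 0, 0, 0 and 0 in replicate 2. Per 10000 fragments, HE2 was also highest for Ints3 in replicate 1, and its only fragment in replicate 2 came from ES. Among the 20 regions with most High fragments at each stage of replicate 1, 19, 20, 19, 15 and 18 were held by all 5 stages, and 12 to 17 were among the 20 of another stage. None of the top 20 of any stage was among the top 20 of the same stage in the other replicate. That count says little, since 20 regions were taken from 6065 to 15441 in replicate 1 and from 590 to 5467 in replicate 2. The lowest of the replicate 2 top 20 held 5, 5, 4, 2 and 4 fragments from ES to HP.

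**Figure D3:**
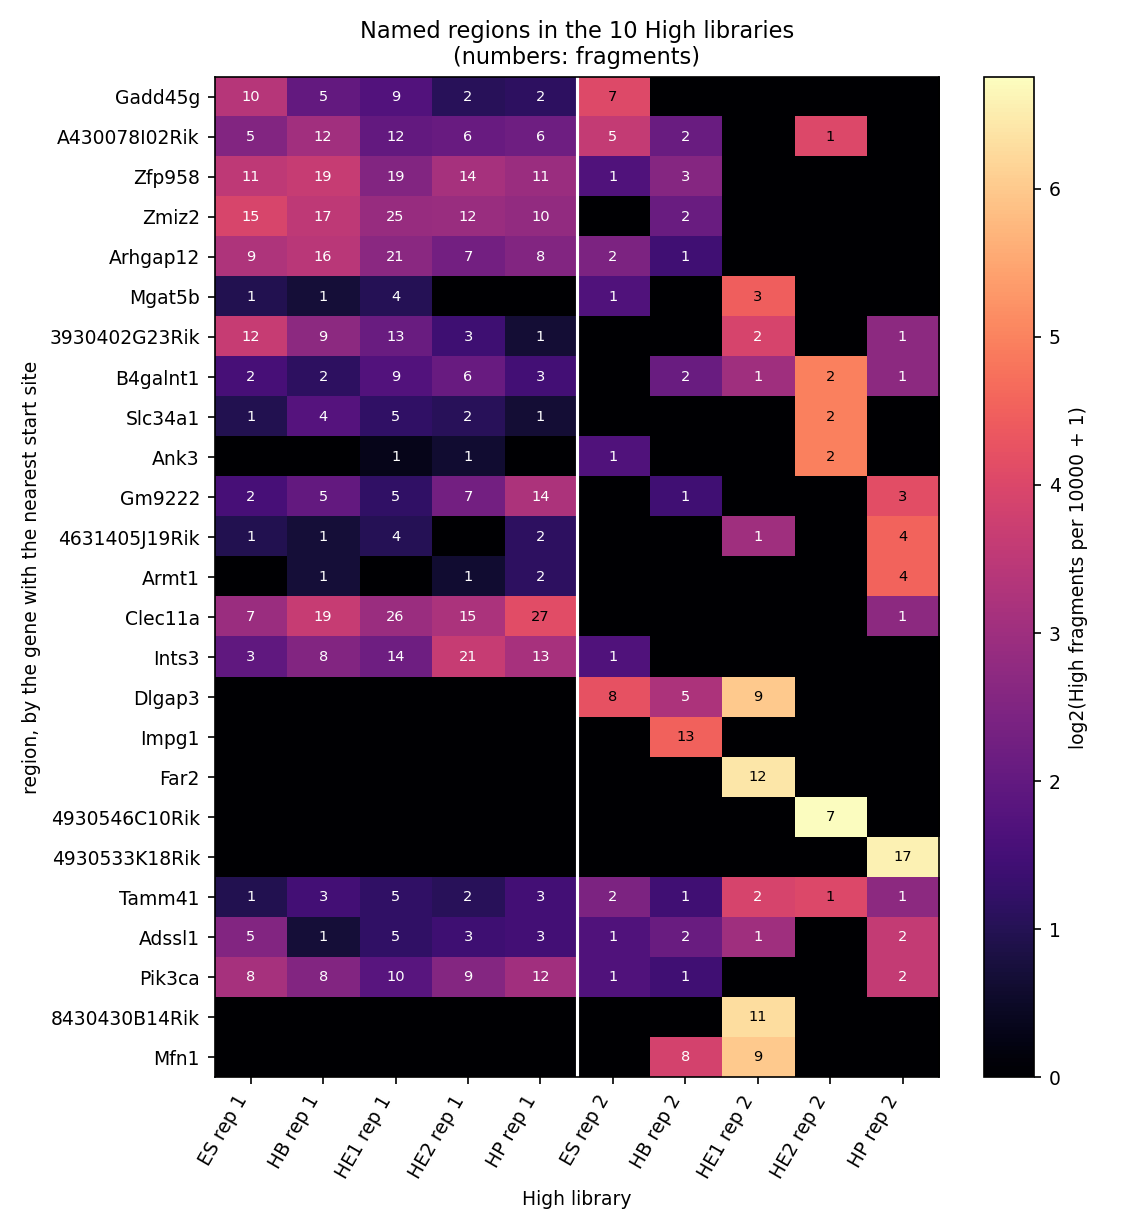
The named regions (rows) in the 10 High libraries (columns): each cell gives the number of High fragments, black cells without a number hold 0, and colour gives log2 of High fragments per 10000 of the library plus 1. Gadd45g is seen in ES of both replicates, Gm9222 is highest in HP of both when every fragment is counted, and Zfp958, Zmiz2 and Clec11a are seen at all 5 stages of replicate 1.

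Regions found most widely did not hold most fragments. The region 28316 bp upstream of Tamm41, a mitochondrial enzyme of cardiolipin synthesis (chr6:115065888-115066493), was High in all 10 libraries, with 1, 3, 5, 2 and 3 fragments in replicate 1 and 2, 1, 2, 1 and 1 in replicate 2. B4galnt1 and Adssl1, an adenylosuccinate synthase, were found in 9 libraries each. Pik3ca, the catalytic subunit of a phosphoinositide kinase, had a region 65 bp upstream of its start site (chr3:32396542-32397458) with 8, 8, 10, 9 and 12 fragments in replicate 1 and 1, 1, 0, 0 and 2 in replicate 2. Of the fragments in the Tamm41 and Pik3ca regions, 39.6 and 36.2% were High.

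The number of High fragments in a region depends on how many different fragments of it were in the sort as well as on their activity. High fragments were 27.9% of all fragments in replicate 1 and 14.7% in replicate 2. In replicate 1 the High share was 28.8% in the Clec11a region (94 of 326 fragments), 25.6% in Zfp958 (74 of 289), 28.9% in Zmiz2 (79 of 273) and 32.4% in Ints3 (59 of 182). These regions held many fragments in every gate, and their High shares were 25.6 to 32.4%. Tamm41 (14 of 32, 43.8%) and Pik3ca (47 of 125, 37.6%) lay above it by value.

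Ranked by High share instead, among regions with at least 15 fragments in a sort, other loci led in replicate 1. This ranking was chosen after the values were seen and is a description. It took in 267, 365, 2401, 667 and 252 regions from ES to HP of replicate 1, so the leaders are extremes picked on few fragments. An intron of Stx3, a membrane fusion protein (chr19:11800494-11801067), led ES with 14 of 15 fragments High, against 27.0% of the sort. The same region had 0 High of 10 fragments in ES of replicate 2, where the Gadd45g region had 7 of 7, after 10 of 18 in replicate 1. In HB the leaders were H2bc11 and Vamp9 with 9 of 16 each, in HE1 Adrb3 with 12 of 18 and Rnf19b with 10 of 15, and in HE2 a region 5354 bp upstream of Aurkb, a mitotic kinase, with 15 of 28. In HP a region 11015 bp upstream of Bsn had 14 of 19 High (chr9:108200967-108201830) and 2 of 5 in replicate 2, and Gm9222 had 14 of 21 and 3 of 13. The other leaders had at most 1 fragment in the sort of the other replicate.

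Many fragments of a region shared an end. In replicate 1, 7.17 to 12.9% of the High fragments had a start or an end in common with another fragment of the library, and in replicate 2 the shares for ES, HB, HE1, HE2 and HP were 9.83, 11.5, 35.1, 17.6 and 33.8%. Among regions with at least 4 fragments, all fragments shared 1 start or 1 end in 7 of 483, 8 of 898, 5 of 3205, 0 of 890 and 1 of 880 regions of replicate 1. In replicate 2 this was so in 22 of 33, 24 of 29, 16 of 20, 1 of 1 and 22 of 32 regions. Most of the larger High regions of replicate 2 were thus of this kind, at every stage. In the Negative libraries of replicate 2 the counts were 16 of 20, 13 of 22, 15 of 32, 15 of 30 and 81 of 146.

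The region 43397 bp upstream of Far2, a fatty acyl reductase (chr6:148003855-148004183), held 12 High fragments, all in HE1 of replicate 2. They had 1 start and 12 ends, a median of 5 bp apart and within 46 bp. The 4930533K18Rik region, in an intron of Bicc1 (chr10:71005716-71006118), held 17 fragments, all in HP of replicate 2, with 1 end and 17 starts. Dlgap3, a postsynaptic scaffold gene, led ES of replicate 2 with 8 fragments in an intron, and Impg1, a retinal matrix gene, led HB with 13. HE2 of replicate 2 was led by a region near 4930546C10Rik with 7 fragments.

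With fragments that share an end within a library counted once, a measure added after seeing the data, each of these 5 leaders counted as 1 in its library. The highest number was then 3 in ES, at 3 regions with A430078I02Rik among them, and 3 in HB, at 2 regions with Zfp958 among them. In replicate 1 the leader changed in HB, where Clec11a went from 19 to 14 and Zfp958 led with 15, and in HE1, where a region near Phf19 led with 25. The leaders of HP and HE2 stayed, from 27 to 21 for Clec11a and from 21 to 16 for Ints3. Of the 35 High fragments of Gadd45g, 16 had the same end, 9 in replicate 1 and 7 in replicate 2, with starts within 12 bp, and its ES counts went from 10 and 7 to 6 and 1. The HP counts of Gm9222 went to 11 and 1, and those of 4631405J19Rik and of Armt1 to 2 and 1. Mgat5b went to 4 and 1 in HE1. In HE2, B4galnt1 went to 3 and 1, Slc34a1 to 2 and 1, and Ank3 to 1 and 1. On this measure the leading regions High in both replicates included Arhgap12 and Smtn in ES, 3930402G23Rik and Pcmtd1 in HE1, and Zfp958, Zmiz2 and A430078I02Rik in HB. They were Mier3, Trim8 and Peg3 in HE2 and Clec11a, Pik3ca and Pip5k1c in HP. Whether such runs arose from 1 insert was not tested.

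**Figure D4:**
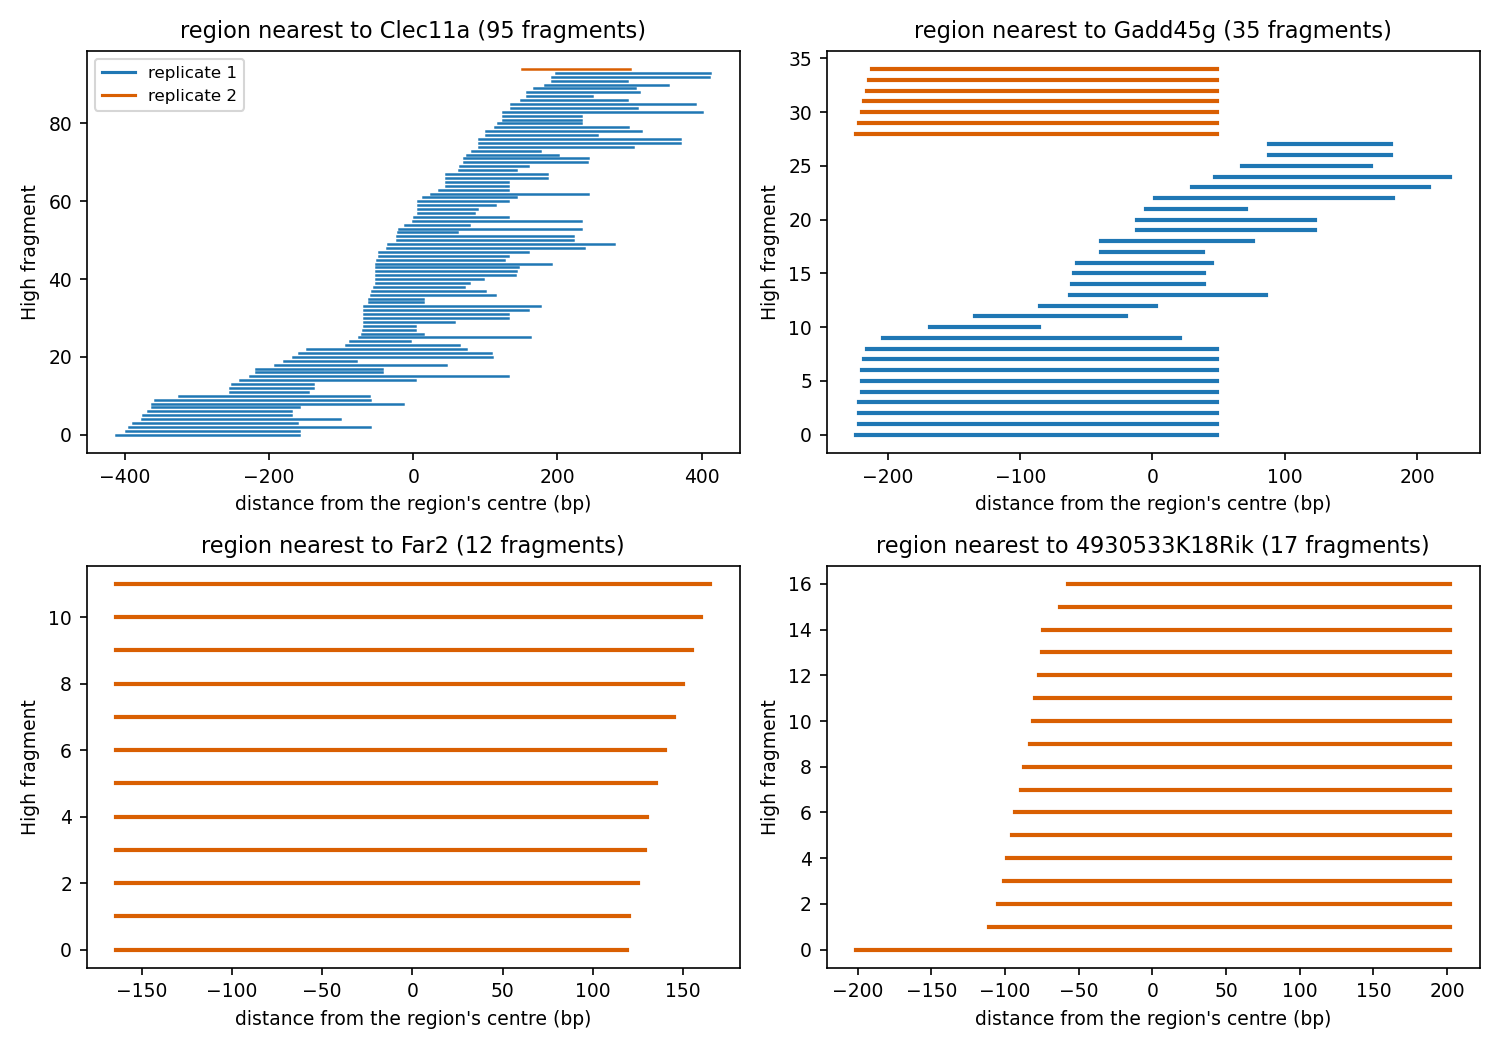
High fragments of the Clec11a, Gadd45g, Far2 and 4930533K18Rik regions, each drawn as a line along the distance from the centre of the region in bp and coloured by replicate, with fragments sorted by start within a replicate. All 12 fragments of Far2 have 1 start and all 17 of 4930533K18Rik have 1 end, whereas the replicate 1 fragments of Clec11a start and end at many places.

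Stage differences were also tested region by region. Of the 2574 regions with at least 10 High fragments, limma called 0 across the 5 stages (0.00% of those tested; F test on log2 of fragments per 10000 plus 1, lowest Benjamini-Hochberg adjusted p = 1.00), while 17 lay under 0.05 before adjustment. This fit pools replicates that stand apart, which left it little power to find a stage difference. With the replicate as a block limma also called 0 (F test, lowest adjusted p = 0.879), while 113 lay under 0.05 before adjustment. voom weights also gave 0 calls, with 55 regions at an unadjusted p under 0.05. Without HP of replicate 1, limma called 1 region, 4930533K18Rik (adjusted p = 0.00254), but this is no test of the stage: all 17 fragments come from the lone remaining HP library, which alone carries the region past the minimum of 10 and is assumed to vary like the other stages. The 5 regions with the lowest p over all 10 libraries were 4930533K18Rik, Far2, 8430430B14Rik, Mfn1 and Gadd45g. All High fragments of the first 4 were in replicate 2, with 11 for 8430430B14Rik in HE1, and 8 and 9 for Mfn1, a mitochondrial fusion protein, in HB and HE1.

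Absence at a stage was described in replicate 1 for regions where the other stages predicted at least 3 High fragments. There were 197, 675, 3698, 921 and 675 such regions in ES, HB, HE1, HE2 and HP, and 24, 60, 261, 60 and 51 of them had 0 High fragments at that stage. For the regions with 0 High fragments, the other stages predicted a median, by stage, of 4.99 to 11.9 fragments in the other 3 gates. Of these regions, 24 in ES, 50 in HB, 138 in HE1, 5 in HE2 and 32 in HP had no fragment of that stage in any gate. All 24 ES regions were therefore missing from the ES lists altogether rather than sorted into another gate, whereas in HE2 55 of 60 were present in another gate. The methods describe a restriction of fragments to the peaks of each stage, which the files do not state list by list, and its part in these values was not tested.

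The 10 loci that the study examines singly were measured within the gene and 25000 bp around it. Runx1, the regulator of the endothelial-hematopoietic transition, had 38 High fragments in 11 regions, with 3, 5, 10, 15 and 3 from ES to HP in replicate 1 and 1, 1, 0, 0 and 0 in replicate 2. HE2 was highest in replicate 1 and had none in replicate 2. Spi1, which encodes PU.1, had 29 (4, 2, 11, 5 and 6, then 0, 1, 0, 0 and 0), with its leading region in an intron 637 bp downstream of the start site (chr2:91082793-91083292). Sparc, a matrix glycoprotein, had 89 (13, 17, 31, 11 and 16, then 1 in ES), led by a region 33451 bp downstream of its start site (chr11:55386366-55386893) with 29 fragments from 5 libraries. Pxn, the adhesion protein paxillin, had 114 (18, 18, 41, 18 and 15, then 3 in ES and 1 in HB). Each of these was High at all 5 stages of replicate 1.

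Hspg2, the basement membrane protein perlecan, had 58 High fragments in 8 libraries, and Notch1, a receptor of endothelial and arterial fate, had 37 in 7 libraries. Eif2b3, a translation factor subunit, had 37, Dlk1, a Notch-like ligand, 13, Galnt1, a glycosyltransferase, 9, and Sox17, an endothelial transcription factor, 7, of which 6 were in HE1 of replicate 1. High fragments made up 15.2% of the fragments of all gates at Notch1, 18.4% at Sox17, 20.4% at Runx1, 22.6% at Hspg2, 26.5% at Pxn and 26.9% at Spi1. At Eif2b3, Sparc, Dlk1 and Galnt1 they made up 30.1, 32.5, 33.3 and 34.6%, against 25.1% over all fragments of the series. Dlk1 and Galnt1 rest on 39 and 26 fragments in all.

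Gene lists were read by the nearest start site. At least 1 High fragment was nearest to 15 of 16 pluripotency genes, 13 of 16 mesoderm and hemangioblast genes, 19 of 20 endothelial, 19 of 21 hematopoietic, 17 of 20 signalling response and 15 of 18 neuronal genes, the last a list of another cell type. Over all genes the share was 48.1% (12604 of 26180). The neuronal list, 83.3%, lay above that share as the blood and endothelial lists did, so the count does not separate the lists. A fragment in both ES replicates was nearest to 5 pluripotency, 3 mesoderm, 4 endothelial, 4 hematopoietic, 7 signalling and 0 neuronal genes, against 4.82% of all genes. In HB these counts were 4, 5, 8, 5, 8 and 1 (7.18% of all genes), in HE1 3, 1, 2, 1, 1 and 1 (2.20%), in HE2 1, 1, 1, 1, 0 and 0 (1.08%), and in HP 2, 5, 4, 1, 5 and 1 (2.34%).

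Fos, an AP-1 subunit induced by growth signals, had most High fragments of any listed gene, 150 in 8 regions, with 16, 32, 53, 19 and 27 from ES to HP in replicate 1 and 2, 0, 0, 0 and 1 in replicate 2. Smad6, an inhibitor of BMP signalling, and Tead1, a factor of the HIPPO pathway, had 58 each. Among mesoderm genes Kdr, which encodes FLK1, had 70, with 1, 11, 22, 23 and 6 in replicate 1 and 2, 4, 0, 0 and 1 in replicate 2. Kdr was lowest in ES in replicate 1 but not in replicate 2. Hand1, a mesodermal factor, had 46 and Gata2, a factor of blood stem cells, 43 from 9 libraries.

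Among endothelial genes Ets1 had 90 High fragments (9, 11, 31, 24 and 13, then 1 each in HB and HP), Flt1, a VEGF receptor, 44, and Sox17, 42. Among hematopoietic genes Meis1, a homeobox factor, had 75, Zfpm1, a partner of GATA factors, 60, and Vav1, a signalling protein of blood cells, 54, all in replicate 1. The pluripotency factors Klf4, Esrrb and Klf2 had 56, 37 and 30. Klf4 was not highest in ES, with 5, 4, 19, 11 and 9 fragments in replicate 1 and 3, 2, 3, 0 and 0 in replicate 2. The neuronal genes Dlg4, Nefl and Snap25 had 42, 31 and 25, of which 1, at Nefl, was from replicate 2.

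No stage difference in the position and make-up of High fragments was called in any of 6 measures (exact permutation tests, Benjamini-Hochberg adjusted p = 0.995 for each, regions at equal depth and regions of a single stage included). The replicates did not overlap in any of the 6, and pooling them left this test little power to find a stage difference. With the replicate as a block, exact permutation p was 0.675 for length, 0.15 for GC content, 0.217 for intron share and 0.708 for distance. It was 0.958 for regions at equal depth and 0.425 for regions of a single stage. Median length was 182, 169, 149, 158 and 126 bp from ES to HP in replicate 1 and 185, 183, 212, 239 and 193 bp in replicate 2. HP was thus the shortest in replicate 1, where Negative fragments of HP had a median of 184 bp. The intron share was 39.4 to 45.1% in replicate 1 and 45.4 to 47.4% in replicate 2. Median distance to a start site was 15253 to 17908 bp in replicate 1 and 21032 to 27745 bp in replicate 2. Within 1500 bp of a start site lay 1.96 to 2.69% and 0.459 to 0.891% of fragments. The methods of the study describe setting fragments within 1500 bp of a start site apart as promoter fragments. If these lists hold the distal side of that split, it bounds both the shares and the distances. Which side each list holds is not stated, and the part of the split in these values was not tested. The Gm9222 and Pik3ca regions lie within that distance.

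Motif content was counted as matches per kb of High fragments. The pluripotency motif OCT gave 0.0732, 0.0629, 0.0454, 0.0510 and 0.0422 from ES to HP in replicate 1 and 0.0569, 0.0533, 0.0219, 0.0249 and 0.0197 in replicate 2. ES and HB were above the later stages in both replicates, but HE1, HE2 and HP of replicate 2 rest on 7, 4 and 7 matches. The exact permutation p was 0.217 (adjusted 0.990), and with the replicate as a block it was 0.00833, the smallest that 120 arrangements allow (adjusted 0.1). Tested as the difference between High and Negative fragments of the sort, OCT gave an exact p of 0.111, or 0.1 with the block. GATA gave 0.115, 0.210, 0.253, 0.310 and 0.283 in replicate 1 and 0.141, 0.159, 0.138, 0.199 and 0.219 in replicate 2 (exact permutation p = 0.29, adjusted 0.990). Negative fragments had GATA at 0.112, 0.265, 0.305, 0.326 and 0.309 in replicate 1, with ES lowest as in the High fragments. In replicate 2 ES was not lowest in either gate, with 0.139 in ES and 0.136 in HE1 of the Negative fragments.

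AP-1 matches per kb were 0.438, 0.349, 0.609, 0.619 and 0.538 in High and 0.465, 0.356, 0.623, 0.585 and 0.448 in Negative fragments of replicate 1. PU.1 ran from 0.105 in ES to 0.190 in HP of replicate 1, and was 0.0877 in ES and 0.0872 in HP of replicate 2. CTCF was 0.269 to 0.453 in replicate 1 and 0.0250 to 0.101 in replicate 2, with no overlap between replicates. In all, 0 of the 12 motifs differed between stages by the exact permutation test, and 0 had an unadjusted p under 0.05, while the block gave 1, OCT, at an unadjusted p under 0.05. For CTCF, whose replicates stand apart, the test without the block had little power, and with the block its exact permutation p was 0.108. The same test of High minus Negative made 0 calls.

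**Figure D5:**
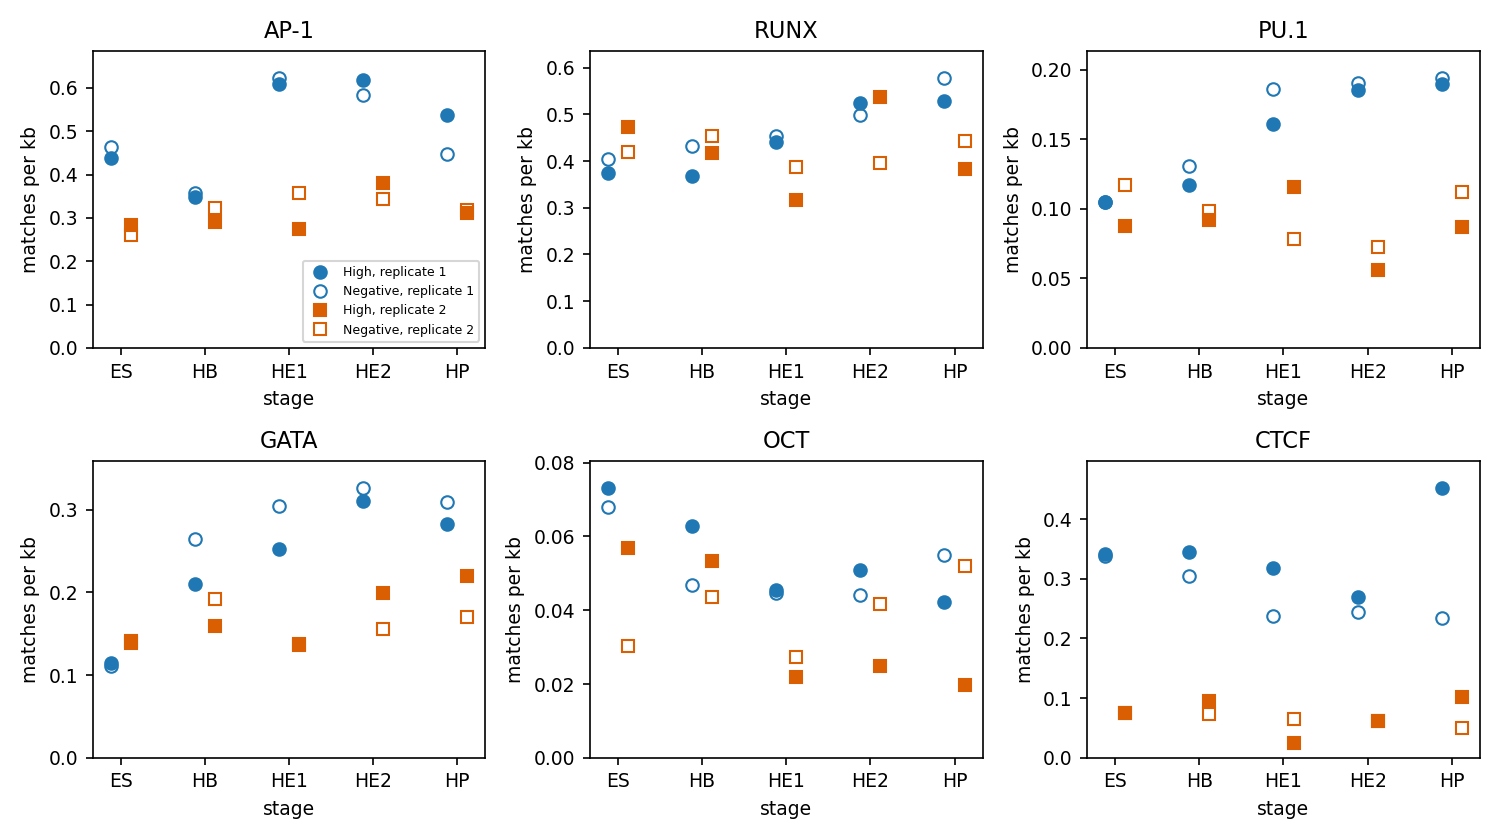
Matches per kb of fragments for AP-1, RUNX, PU.1, GATA, OCT and CTCF at each stage, with filled points for High and open points for Negative libraries, and circles for replicate 1 and squares for replicate 2. OCT of High fragments is 0.0732 in ES and 0.0422 in HP of replicate 1 and 0.0569 and 0.0197 in replicate 2, and CTCF lies higher in every replicate 1 library than in any of replicate 2.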

How the data were processed

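The values deposited by the authors are coordinates of unique fragments in bp (unit other), 1 list per library, with no column left unused (0). Per the methods of the study, reads were trimmed (Trim Galore), aligned to mm10 (Bowtie2), reduced to proper pairs of high mapping quality (SAMtools), collapsed to unique spans, cleared of a background library (bedtools), limited to open chromatin of the stage, and split by distance from a start site (HOMER). For the reporter reads, tool versions are not given in the sources used here. Inserts were amplified by PCR without molecular identifiers, so fragments need not be independent molecules, and a library's depth is its number of fragments.

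Regions were runs of High fragments overlapping by at least 1 bp. Annotation was curated RefSeq on GRCm38. Libraries were thinned in 20 seeded draws. Stages were compared by exact permutation over libraries and by limma 3.58.1 on log2 of fragments per 10000 (R 4.3.3), with Python 3.11.15, numpy 2.4.6, pandas 2.3.3, pysam 0.24.0 and matplotlib 3.10.9. The scripts were tested on simulated data. Named regions were the 3 highest per stage by mean fragments per 10000 among those in both replicates, the fullest region of each library, the 5 in most libraries, the 5 with the lowest p, 10 loci of the study, and the 3 genes of each list with most High fragments. A named region is not reported here. Members and lists were chosen with earlier results of these data known. Same-numbered libraries deviated together, with correlations of 0.13 to 0.23 in all 10 stage pairs over 2574 regions, so the numbers were taken to pair the libraries and the replicate was tried as a block. Other alternatives were the thinning, the overlap measure, the filter, the pseudocount, voom and leaving out each library.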

Additional observations from a re-analysis of the deposited data

How the results depend on the processing

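Of 182 alternatives over 12 results, 167 were the same as the main setting by the rule for their kind. Differences with a sign had to keep direction and side of the threshold. Other tests had to keep the side alone, and counts had to stay within a set ratio. With the replicate block, which follows the pairing of the libraries, regions and motifs called stayed at 0 and the 6 measures of position and make-up gave exact permutation p-values of 0.15 to 0.958, so the block changed no call. The same-stage minus different-stage Jaccard index was 0.0867 percentage points without thinning (one-sided exact p = 0.0417), and 0.00796 to 0.0301 with stages left out. The adjacent minus other difference was 1.85 as a percent of the smaller set and 0.215 for identical fragments (one-sided exact p = 0.0333 for each), and 0.360 to 2.39 with a library or replicate left out. Over these leave-outs its exact p was 0.0167 to 0.283. The same-stage minus different-stage hits of the strongest regions changed sign to 0.50 without thinning, 0.0425 with regions of all 40 libraries, 0.733 with the top 50 regions (one-sided exact p = 0.025) and 0.00 with regions chosen in replicate 2, and were -0.529 to 0.392 with stages left out. Leaving out a library leaves a stage with 1 replicate. The largest stage difference was then 9.73 to 26.3 in regions per 100 fragments. In the share found at a single stage it was then 22.8 to 36.7 points. Regions High in both replicates numbered 87 with at least 2 fragments in each. limma called 6 regions with a pseudocount of 5 (4930533K18Rik, Gm9222, Gadd45g, 8430430B14Rik, Mfn1 and Far2; lowest adjusted p = 0.00925), of which all but Gm9222 and Gadd45g passed the minimum of 10 fragments only through the 1 or 2 libraries that hold them, and 0 to 1 with a library left out, the 1 being 4930533K18Rik without HP of replicate 1 (adjusted p = 0.00254). With fragments that share an end counted once, Gadd45g held 1 fragment in ES of replicate 2 and Gm9222 held 1 in HP of replicate 2. The cause of the changes under these alternatives was not tested. Precision is limited by the depth of replicate 2, whose smallest High library holds 654 fragments, and by 2 replicates per stage.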
